A study of Mus musculus with 47 samples.

Results

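The genes described are the mouse genes of glutathione and thioredoxin chemistry: the glutathione S-transferases of the alpha, kappa, mu, omega, pi, theta and zeta classes, the membrane-bound transferases (Mgst), the glutathione peroxidases (Gpx), the peroxiredoxins (Prdx), the thioredoxin group (Txn) and glutamate-cysteine ligase (Gcl). Members were all probes whose gene symbol in the platform annotation starts with one of these roots. The rule took 82 of 25697 probes, for 56 genes, of which 18 had more than 1 probe. By symbol the rule also takes thioredoxin-domain (Txndc) and thioredoxin-like (Txnl4a, Txnl4b) genes, some of which act in protein folding or splicing and not in detoxification. No probe was annotated to Prdx5 or Prdx6.

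Glutathione is a tripeptide thiol that cells use to neutralise electrophiles and peroxides. Glutamate-cysteine ligase, made of the catalytic subunit Gclc and the modifier subunit Gclm, carries out the rate-limiting step of its synthesis. The S-transferases join glutathione to reactive foreign or endogenous molecules, and the glutathione peroxidases use it to reduce hydrogen peroxide and lipid hydroperoxides. The thioredoxin system is the parallel thiol system: thioredoxins reduce protein disulfides and peroxiredoxins, thioredoxin reductases recharge them, and Txnip binds and restrains thioredoxin.

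All cells were mouse embryonic stem cells grown in N2B27, a serum-free base medium. The WT line was set beside KO cells (Tcf7l1-/-), 3XKO cells (Tcf7-/-, Tcf7l2-/- and Lef1-/-, with Tcf7l1 retained) and 4XKO cells (all 4 genes -/-); these genes encode the TCF/LEF proteins that bind DNA with beta-catenin. Each genotype was 1 line, so the lost factors and the line cannot be told apart. In the naive medium (ESC) cells had 1 uM PD0325901, a MEK inhibitor, 3 uM CHIR99021, an inhibitor of Gsk3 that stabilises beta-catenin, and 1000 U/mL of LIF. In the EpiLC medium they had 12 ng/mL of Fgf2, a condition meant to bring them to an epiblast-like state. In EpiLC+CH they had 3 days of Fgf2 and then 24 h of 3 uM CHIR99021. WT cells were also kept in Fgf2 and CHIR99021 together (ContinuedCH). These 13 groups had 3 arrays each, described by the labels as biological triplicates. A further 8 WT arrays, normalized separately, held LIF with PD0325901 (LIF+PD, 3 arrays), LIF with PD0325901 and later CHIR99021 (LIF+PD+24hrCH, 3 arrays), LIF+CHIR (1 array) and PD+CHIR (1 array). For LIF+PD+24hrCH the labels describe 24 h of LIF and PD0325901 and then 48 h of 3 uM CHIR99021, while the group's name gives 24 h. Neither the length of the CHIR99021 exposure nor whether LIF and PD0325901 stayed in is settled by them. The time in Fgf2 is not given for the untreated EpiLC group or for ContinuedCH. Days of culture and CHIR99021 therefore cannot be told apart in EpiLC+CH or in ContinuedCH.

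Values are background-corrected, normalized bead intensities, and an array has no read depth: precision is set by the number of arrays. A probe was taken as above background on an array where its intensity exceeded the size of the most negative value in its set, 13.6 for the 39 arrays and 14.3 for the 8. Every group was checked for Tcf7l1, whose mean intensity in ESC was 1499 ± 191 (SD, n = 3) in WT, 194 ± 20.1 in KO, 1640 ± 96.9 in 3XKO and 681 ± 55.1 in 4XKO. In EpiLC it was 2018 ± 22.0 in WT, 704 ± 34.8 in KO, 1916 ± 30.6 in 3XKO and 836 ± 107 in 4XKO. In EpiLC+CH it was 1825 ± 94.7, 640 ± 67.2, 2103 ± 253 and 796 ± 35.6 in the same order. KO and 4XKO were thus the lines with the lower Tcf7l1 signal in each medium, as labelled, but signal was left in both. In KO that signal was higher in EpiLC and EpiLC+CH than in ESC. Where the probe lies relative to the deletions is not given in the sources used here. The summed intensity of 5 naive pluripotency markers was 21497.4 to 23844.9 on the WT ESC arrays and 4619.2 to 5021.1 on the WT EpiLC arrays. On KO, 4XKO and ContinuedCH EpiLC arrays that sum stayed between 13979.0 and 16224.7, and the sum of 4 formative markers was 3439.0 to 5690.7 against 19216.9 to 21360.4 in WT EpiLC and 17806.8 to 20007.1 in 3XKO EpiLC. On ESC arrays the formative sum was lower, 939.0 to 1066.1 in KO, 1685.6 to 1777.1 in 4XKO and 1487.2 to 1628.3 in WT. By these markers KO, 4XKO and ContinuedCH lay between the ESC arrays and WT or 3XKO EpiLC, so the labelled identity was only partly borne out. Every comparison below of those groups with WT or 3XKO EpiLC also sets high against low naive marker signal. Extraembryonic endoderm markers (7 measured) and trophoblast markers (6) summed to at most 194.7 and 126.2 on any of the 39 arrays, and 6 fibroblast markers to 15.9 to 27.0 in WT ESC and 230.8 to 244.9 in WT EpiLC. Trophoblast sums on the other 8 arrays were 351.2 to 384.6 in LIF+PD, 315.9 to 352.6 in LIF+PD+24hrCH, 182.0 in LIF+CHIR and 149.3 in PD+CHIR. Fibroblast sums there were 280.2 to 403.3, 250.9 to 253.9, 422.9 and 627.4 in the same order, and endoderm sums at most 104.7. The part of any of these markers in the results was not tested, and in such bulk samples fewer cells of a type and less RNA per cell cannot be told apart.

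RefSeq promoter sequences (250 bases before to 50 after the annotated start, GRCm38.p6) were matched for 51 of the 56 genes, in 68 promoters, and 5 genes were unmatched (Gclc, Gsta4, Gstt2, Txnl1 and Txnl4a). The antioxidant response element core TGACNNNGC, searched on both strands, was present in 9 of these 68 promoters (13.2%), and in 12.4% of 32851 promoters of the same length. The 9 genes were Gclm, Gsta3, Gstm5, Mgst1, Prdx1, Txndc2, Txndc5, Txndc11 and Txnrd1. The TCF/LEF core CTTTGAT was in 2 of the 68 (2.94%, Txndc15 and Txndc16), against 3.73% of all. Both shares were near those of all promoters, and a match is a description of the letters in this window. Other genes named in the later comparisons, Gsto1, Gstp2, Gstp3, Gpx1 and Gpx4 among them, had no TGACNNNGC match in this window. The matched stretches of 4 of the 9 genes with a match are shown on the plus strand with the motif in capitals. They lie at chr3:122245398-122245456 (Gclm), chr1:21240439-21240497 (Gsta3), chr3:107895787-107895845 (Gstm5) and chr6:138140446-138140504 (Mgst1). In Gclm and Mgst1 the motif reads on the minus strand.
Gclm: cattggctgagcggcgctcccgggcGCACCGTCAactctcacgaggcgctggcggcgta
Gsta3: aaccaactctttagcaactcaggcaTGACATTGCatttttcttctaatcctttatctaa
Gstm5: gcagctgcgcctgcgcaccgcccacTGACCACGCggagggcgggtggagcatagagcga
Mgst1: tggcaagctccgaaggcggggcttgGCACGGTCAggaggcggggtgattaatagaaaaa

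The 3 pi-class genes sit side by side on chromosome 19, read on the minus strand, and are shown because Gstp1 moved against the other two when WT cells left the naive medium. The last 60 bases before each start, at chr19:4037913-4037972 (Gstp1), chr19:4042222-4042281 (Gstp2) and chr19:4059448-4059507 (Gstp3), are given 5′ to 3′ on the minus strand.
Gstp1: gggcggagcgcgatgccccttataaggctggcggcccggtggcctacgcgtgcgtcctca
Gstp2: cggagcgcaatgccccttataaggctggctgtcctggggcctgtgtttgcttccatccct
Gstp3: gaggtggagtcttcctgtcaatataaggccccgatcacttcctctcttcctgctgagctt

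Over the 250 bases before the start, Gstp1 and Gstp2 were 88.1% identical (207 of 235 aligned bases, with 30 gap positions), Gstp1 and Gstp3 59.6%, and Gstp2 and Gstp3 54.1%. Gstp1 and Gstp2, and neighbouring mu-class genes, are near-identical copies, so a probe may take signal from both and their separate values are uncertain. Probe sequences were not used here.

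Of the 82 probes, 48 (58.5%) were above background on all 39 arrays, against 35.0% of all probes, 17 were above it on some arrays and 17 on none. The 48 covered 37 genes, and 11 genes had no probe above background on any array. A difference somewhere among the 13 groups was called for 55 of the 82 (46.7% of all probes were called), where called means an adjusted p under 0.05 from limma with Benjamini-Hochberg adjustment over all 25697 probes. By class these were 3 of 5 alpha, 8 of 10 mu, 4 of 5 pi, 4 of 4 theta, 2 of 3 omega and both kappa and zeta probes. Among the other groups they were 4 of 5 Mgst, 9 of 12 Gpx, 3 of 7 Prdx, 5 of 9 thioredoxin and reductase, 5 of 13 Txndc and 5 of 5 Txnl4 probes. The remaining call was Gclm. The Gclc probe read below or just above the limit on nearly all arrays, 4.4, 9.0 and 7.5 in WT ESC and 7.6, 13.6 and 7.5 in WT EpiLC, so the catalytic subunit could not be followed.

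**Figure D1:**
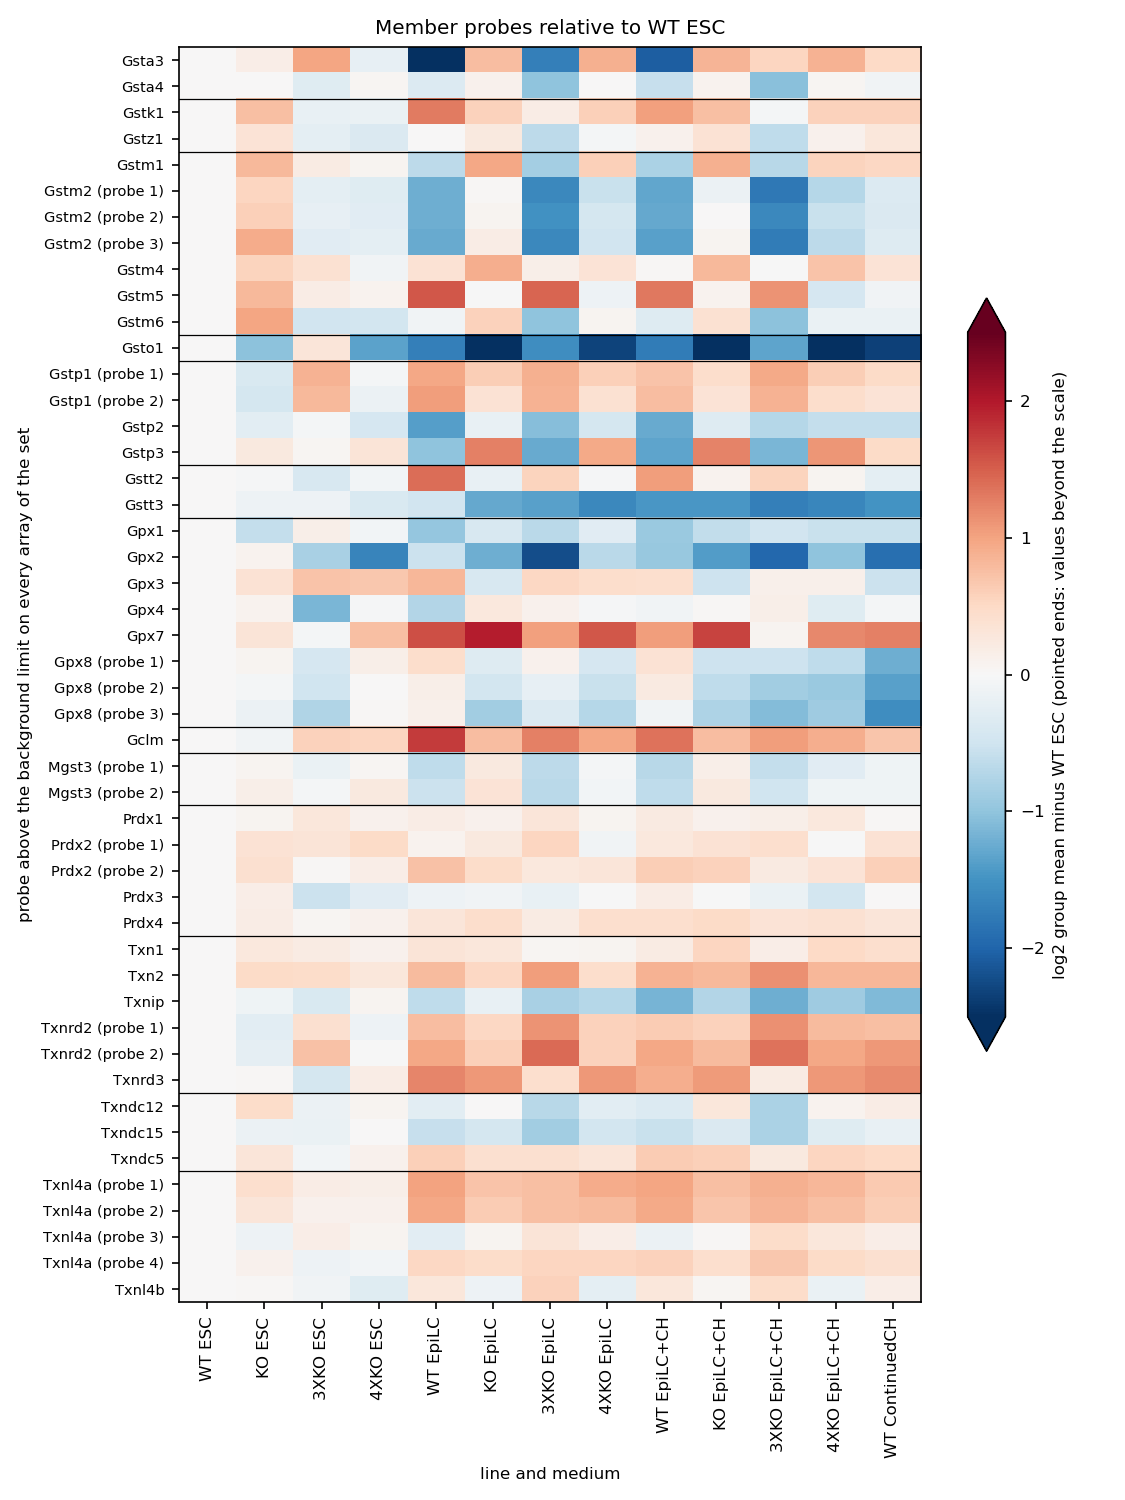
Colour gives the log2 mean intensity of each group minus that of WT ESC for the 48 probes above background on all 39 arrays, 1 row per probe and 1 column per group of 3 arrays. The Gsta3 row is lowest in WT EpiLC, with a mean 3.83 below WT ESC, and is above 0 in KO and 4XKO EpiLC.

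The exit of WT cells from the naive medium was compared first, because the other lines and treatments are read against it. Among transferases Gsta3 (alpha class) dropped 14.2-fold, Gsto1 (omega) 3.25-fold and Gstp2 (pi) 2.60-fold, and the peroxidase Gpx1 dropped 1.97-fold. Over the same change the glutathione synthesis subunit Gclm rose 3.37-fold, with Mgst1 7.09-fold, Gpx7 3.07-fold, Gstm5 2.92-fold, Gstt2 2.64-fold and Gstk1 2.45-fold. In all, 46 of the 82 probes (36 genes) were called, 26 higher and 20 lower in EpiLC, beside 30.0% of all probes (15.7% higher and 14.3% lower). More of the members (58.5%) than of all probes (35.0%) were above background on all 39 arrays. The part of this in the shares called, here and in the later counts, was not tested. The median difference over the members was 0.00 on the log2 scale, as was that over all probes.

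For synthesis, Gclm read 416.6, 432.6 and 367.2 on the ESC arrays and 1439.7, 1368.7 and 1280.5 on the EpiLC arrays. Its log2 difference was 1.75 ± 0.08 (SE of the fit, n = 3 arrays a group, as for all log2 differences below; adjusted p = 3.33e-16), and the groups were far apart. Of the cytosolic transferases, Gsta3, which in mouse liver conjugates the epoxide of aflatoxin, read 602.9, 612.5 and 573.3 in ESC and 51.2, 36.6 and 39.3 in EpiLC. This is a difference of -3.83 ± 0.09 (adjusted p = 1.64e-23), and every EpiLC array lay more than 10-fold below every ESC array. The dimmer Gsta3 probe fell under background in EpiLC and gives at least 1.19-fold.

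Gsto1, an omega-class thioltransferase that also reduces dehydroascorbate, went from 4459.6, 3697.5 and 3987.4 to 1131.3, 1249.6 and 1357.4 (-1.70 ± 0.11, adjusted p = 9.74e-14). The pi-class genes did not move as a block. Gstp2 fell from 5759.6, 5328.7 and 5439.0 to 1880.6, 2305.7 and 2193.8 (-1.38 ± 0.09, adjusted p = 5.34e-13), and Gstp3 from 73.1, 78.8 and 74.1 to 32.6, 39.2 and 41.0 (-1.01 ± 0.14, adjusted p = 8.07e-07). Gstp1 rose from 2415.4, 2351.2 and 2376.4 to 4672.7, 5344.1 and 4672.7 (1.04 ± 0.09, adjusted p = 1.21e-10), and its other bright probe gave 0.97 ± 0.09. A dim Gstp1 probe, under background in ESC, was not called (2.08, adjusted p = 0.0542). The opposite signs of Gstp1 and Gstp2 were thus seen on all 6 arrays, with the reservation on shared signal given above.

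The mu class, which conjugates a wide range of electrophiles, was split as well. All 3 Gstm2 probes fell, by 1.22, 1.22 and 1.25 on the log2 scale, and Gstm1 went from 352.2, 353.7 and 416.2 to 241.8, 236.8 and 234.0 (-0.65 ± 0.12, adjusted p = 8.54e-05). Gstm5 rose from 95.7, 88.0 and 106.8 to 288.8, 274.3 and 282.1 (1.54 ± 0.16, adjusted p = 3.23e-09). Within each of these 3 genes the groups did not overlap.

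The theta class was split too. Gstt2 went from 140.2, 127.4 and 116.4 to 335.7, 312.5 and 364.1 (1.40 ± 0.18, adjusted p = 1.55e-07). Gstt1, whose protein acts on small halogenated molecules, was under background in ESC (4.5, 3.1 and -0.1) and read 34.3, 55.6 and 37.0 in EpiLC, at least 3.04-fold higher (adjusted p = 2.73e-08). Gstt3 fell by 0.48 (adjusted p = 0.00247). Gstt4 was called but lay under background on all 39 arrays, so its value carries no level. Gstk1, the kappa-class enzyme of mitochondria and peroxisomes, rose from 231.4, 236.7 and 231.4 to 585.5, 573.6 and 554.3 (1.29 ± 0.10, adjusted p = 5.89e-12). Mgst1, a membrane-bound transferase with peroxidase activity, read 21.2, 26.7 and 10.3 in ESC, where 1 array was under the limit, and 135.6, 144.2 and 106.1 in EpiLC (2.83 ± 0.28, adjusted p = 1.33e-09). Gsta4, which conjugates the lipid peroxidation product hydroxynonenal, changed little but was called, from 2518.4, 2961.2 and 2887.1 to 2117.9, 2219.3 and 2242.7 (-0.34 ± 0.11, adjusted p = 0.0125).

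Among peroxidases, the cytosolic selenoenzyme Gpx1 went from 22754.5, 21099.5 and 19616.4 to 10788.6, 10897.3 and 10524.9 (-0.98 ± 0.08, adjusted p = 7.5e-11). Gpx4, which reduces lipid hydroperoxides in membranes and guards against ferroptosis, went from 2434.9, 2200.3 and 2245.0 to 1347.6, 1322.8 and 1496.9 (-0.72 ± 0.11, adjusted p = 1.91e-06). Both genes were lower on every EpiLC array. Gpx7, a peroxidase of the endoplasmic reticulum, rose from 147.6, 193.7 and 144.5 to 379.1, 562.7 and 562.7 (1.62 ± 0.13, adjusted p = 1.76e-11), and the secreted Gpx3 rose by 0.84 (adjusted p = 8.66e-07). The epithelial Gpx2 fell by 0.54 (adjusted p = 0.00183).

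In the thioredoxin system, Txnip fell from 2687.9, 2539.9 and 2418.3 to 1427.7, 1705.3 and 1778.7 (-0.64 ± 0.09, adjusted p = 1.09e-06), with no overlap. Higher in EpiLC were mitochondrial thioredoxin Txn2 (0.79, adjusted p = 1.17e-07), the mitochondrial reductase Txnrd2 (0.97 and 0.76 for its probes), the thioredoxin-glutathione reductase Txnrd3 (1.22, adjusted p = 5.54e-07), and the peroxiredoxins Prdx2 (0.74, adjusted p = 3.58e-10) and Prdx4 (0.31, adjusted p = 0.00449). The cytosolic thioredoxin Txn1 was not called, at 234.9, 247.0 and 337.3 in ESC and 335.8, 316.9 and 363.5 in EpiLC. The same held for its reductase Txnrd1, at 13.5, 23.9 and 29.7 against 33.1, 30.9 and 40.9, and for the brighter probe of the peroxiredoxin Prdx1, at 10390.0, 11211.0 and 13259.8 against 13702.6, 11839.8 and 13949.8. Txnl4a, a component of the spliceosome, was higher by 1.00, 0.97 and 0.52 with 3 of its probes and lower by 0.27 with another (adjusted p = 0.029), so its probes disagreed.

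The same change of medium was then followed in the other lines, each line's EpiLC against its own ESC. Without Tcf7l1, several genes that fell in WT cells did not fall or rose, Gsta3 and Gstp3 above all, and several that rose in WT, Gstm5, Gstt2 and Gstk1 among them, rose less, fell or were not called. In 3XKO cells most calls had the same sign as in WT, while Gpx4 rose 2.39-fold there. Gsto1 fell and Gclm, Gpx7 and Mgst1 rose in all 4 lines, although by different amounts. Calls numbered 26 in KO (14 higher, 12 lower; 20.4% of all probes called, 10.8% and 9.65% by direction). There were 44 in 3XKO (25 and 19; 27.8%, 14.6% and 13.2%) and 31 in 4XKO (20 and 11; 20.9%, 11.1% and 9.79%).

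Gsta3 had the largest difference from WT among called members in KO and in 4XKO. In KO it rose from 684.8, 674.3 and 660.3 in ESC to 1039.5, 988.7 and 1032.5 in EpiLC (0.60 ± 0.09, adjusted p = 3.37e-06). In 4XKO it rose from 515.6, 521.1 and 521.7 to 1057.7, 1132.7 and 1139.4 (1.09 ± 0.09, adjusted p = 4.94e-11). In 3XKO it fell from 1159.5, 1103.0 and 1265.1 to 199.0, 170.5 and 175.2, 6.48-fold (-2.70 ± 0.09, adjusted p = 5.81e-20). All 3 changes differed from that of WT: tested as an interaction, the difference was 4.43 ± 0.12 for KO (adjusted p = 1.39e-20), 4.92 ± 0.12 for 4XKO (adjusted p = 1.25e-21) and 1.13 ± 0.12 for 3XKO (adjusted p = 1.42e-07).

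The pi-class gene Gstp3 had the same signs: it rose in KO from 95.5, 78.1 and 96.4 to 189.7, 182.3 and 172.2, and in 4XKO from 107.5, 92.4 and 84.1 to 157.3, 148.7 and 132.8. In 3XKO it fell from 83.2, 68.1 and 82.8 to 32.6, 28.0 and 34.3 (-1.30, adjusted p = 1.16e-08). The change exceeded that of WT by 2.03 ± 0.20 in KO (adjusted p = 5.29e-09) and by 1.64 in 4XKO. Gstp2 had no called change in either line without Tcf7l1. It read 4658.3, 4736.7 and 4459.6 in KO ESC and 4801.7, 4861.2 and 4870.9 in KO EpiLC, and the ranges overlapped in 4XKO (4562.5, 3784.2 and 4093.2 against 3891.9, 4229.2 and 4033.7). These changes differed from the WT fall by 1.45 ± 0.13 (adjusted p = 1.24e-09) and 1.35. Gpx1 was likewise not called in KO or 4XKO, and its KO change differed from that of WT by 1.17 (adjusted p = 8.05e-09).

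Gclm rose in every line, and least in 4XKO. It went from 375.9, 393.6 and 376.5 to 706.8, 680.8 and 673.9 in KO, from 592.3, 675.3 and 558.4 to 900.6, 945.4 and 1069.0 in 3XKO, and from 574.6, 553.6 and 632.5 to 797.9, 757.5 and 813.1 in 4XKO. The log2 rises of 0.85, 0.68 and 0.43 were each smaller than in WT, by 0.90 (adjusted p = 1.23e-06), 1.08 ± 0.12 (adjusted p = 2.49e-07) and 1.32 ± 0.12 (adjusted p = 1.47e-09). The 3XKO and 4XKO ESC arrays all read above the WT ESC arrays, and all mutant EpiLC arrays below the WT EpiLC arrays.

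Gstm5 fell in KO cells, from 150.2, 177.6 and 183.5 to 82.2, 103.2 and 105.0 (-0.82, adjusted p = 0.000199). In 4XKO it was not called, at 98.3, 92.3 and 118.2 against 79.5, 79.7 and 109.0. In 3XKO it rose from 91.4, 114.2 and 127.4 to 283.7, 230.7 and 288.3 (1.28, adjusted p = 1.56e-07), as in WT. The differences from WT were -2.36 ± 0.22 for KO (adjusted p = 2.87e-09) and -1.76 for 4XKO. Gstt2, Gstk1 and Gpx3 also changed less than, or opposite to, WT in KO, by -1.56 ± 0.25, -1.46 ± 0.14 and -1.60 ± 0.16 (adjusted p = 2.26e-05, 2.63e-09 and 1.39e-08).

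A called rise of Gpx4 was seen in 3XKO only. It rose there from 967.9, 998.8 and 1136.4 to 2445.5, 2302.8 and 2648.8 (1.25 ± 0.11, adjusted p = 9.91e-11), the opposite of its fall in WT, with a difference between the lines of 1.98 ± 0.15 (adjusted p = 1.6e-10). In KO (2232.7, 2206.8 and 2877.7 against 2362.7, 2916.8 and 3019.4) and 4XKO (2063.6, 2143.9 and 2571.5 against 2204.4, 2211.3 and 2312.8) the groups overlapped and no change was called. The KO change still differed from the WT fall, by 0.91 ± 0.15 (adjusted p = 3.35e-05 in limma). On the dimmer Gpx4 probe, not above background in every group, the difference from WT was 2.03 ± 0.40 in KO and 2.54 ± 0.40 in 3XKO. Gpx2 was the reverse case in 4XKO, where it rose from 57.3, 58.1 and 46.4 to 103.1, 110.4 and 104.5 (0.98, adjusted p = 1.41e-06). It fell in the other lines, from 187.4, 175.2 and 177.7 to 75.2, 68.2 and 75.0 in KO and from 100.3, 97.0 and 91.5 to 33.2, 34.6 and 42.1 in 3XKO.

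Gsto1 fell in all 4 lines: from 2153.9, 1855.4 and 1924.4 to 546.2, 629.0 and 658.7 in KO (-1.70, adjusted p = 3.71e-13), from 4682.1, 5040.6 and 5142.9 to 1463.0, 1256.8 and 1422.0 in 3XKO (-1.85), and from 1562.4, 1418.4 and 1831.9 to 763.6, 841.7 and 846.9 in 4XKO (-0.97). Probes of 4 genes fell in every line (Gsto1, Gstt3, Txndc15 and 1 Gstm2 probe), and 9 probes of 6 genes rose in every line (Gclm, Gpx7, Mgst1, Txnl4a, Txnrd2 and Txnrd3), beside 4.26% of all probes lower and 4.46% higher in every line. Of the 46 probes called in WT, 35 were called the same way in 3XKO (76.1% of the WT list, 79.5% of the 3XKO list; 65.2% and 70.5% over all probes) and 2 the opposite way. In KO 19 matched and 5 were opposite (41.3% and 73.1%; 44.6% and 65.5% over all probes), and in 4XKO 20 matched and 7 were opposite (43.5% and 64.5%; 48.6% and 69.9%). The shares of the members were thus above those of all probes in 3XKO and near them in KO and 4XKO, and no difference in share was tested. Probes of 1 gene are counted apart, and both opposite calls in 3XKO were Gpx4 probes. As a description over the 48 probes, Pearson's r with the WT change was 0.85 for 3XKO, 0.31 for KO and 0.23 for 4XKO. The same WT change enters all 3 values. The change itself differed from that in WT for 36 probes in KO (16.5% of all probes), 21 in 3XKO (10.6%) and 33 in 4XKO (14.4%). These 3 tests share the WT arrays.

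**Figure D2:**
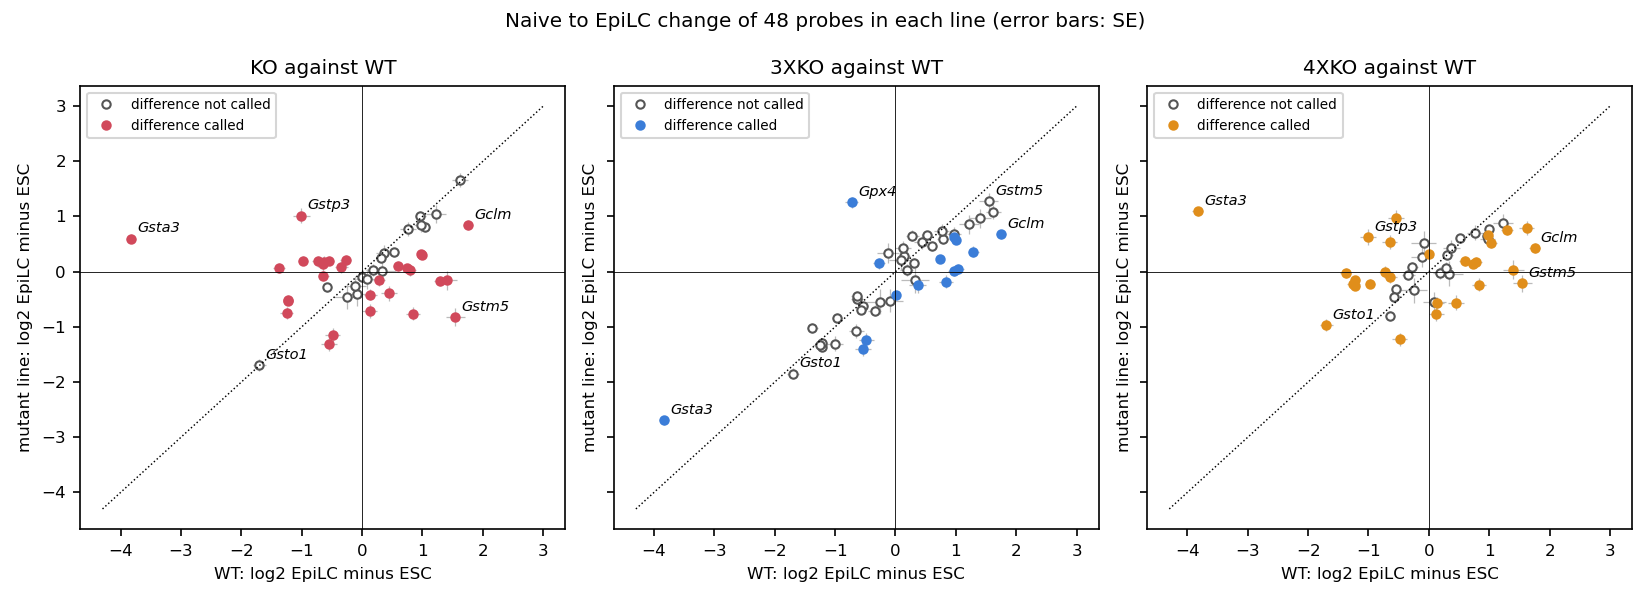
Each point is 1 of the 48 probes, with the log2 EpiLC minus ESC difference in WT on the x axis and that in the mutant line on the y axis; bars are SE, filled points have a called difference from WT, and the dotted line marks equal change. Gsta3 lies far above the line in KO and 4XKO and less far above it, by 1.13, in 3XKO, where Gpx4 stands above it by 1.98.

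The lines were also compared with WT within each medium, which shows where the altered changes started and ended. In EpiLC, both lines without Tcf7l1 had far more Gsta3 than WT (24.3-fold in KO and 26.5-fold in 4XKO), more Gstp3, Gstm1, Gstm2 and Mgst3, and less Gclm, Gstm5, Gstt2 and Mgst1. 3XKO had 4.32-fold more Gsta3 but less Gstm2, Gpx2 and Gstk1. Of the 82 probes, 42 were called in KO (19 higher, 23 lower; 21.8% of all probes, 11.1% and 10.6% by direction). In 3XKO 32 were called (10 and 22; 18.8%, 9.66% and 9.11%), and in 4XKO 36 (15 and 21; 20.0%, 10.3% and 9.69%). The median over the members was 0.00 in KO, -0.20 in 3XKO and -0.04 in 4XKO, beside 0.0 over all probes. All 3 comparisons share the WT EpiLC arrays.

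Gsta3 exceeded the WT EpiLC level by 4.60 ± 0.09 in KO (adjusted p = 1.42e-24), 4.73 ± 0.09 in 4XKO (adjusted p = 7.05e-25) and 2.11 ± 0.09 in 3XKO (adjusted p = 1.32e-16); the arrays are those given above and none overlapped. Gstp3 was higher by 2.28 ± 0.14 in KO (4.84-fold, adjusted p = 1.91e-13) and by 1.96 in 4XKO (3.90-fold). Gstm1 read 726.1, 768.1 and 684.4 in KO EpiLC (1.61 ± 0.12, 3.05-fold, adjusted p = 1.88e-11) and 555.3, 534.0 and 609.4 in 4XKO EpiLC (2.38-fold), with every array above those of WT. Gstm2 was higher by 1.25 to 1.43 in KO and 0.67 to 0.79 in 4XKO, and lower by 0.29 to 0.39 in 3XKO. Gpx4 was higher in all 3, by 0.99, 0.83 and 0.69 in KO, 3XKO and 4XKO, as was Gpx1, by 0.58, 0.29 and 0.69. Mgst2, which can make leukotriene C4, was higher in 3XKO at 69.9, 59.2 and 54.1 against 20.6, 25.7 and 20.0 in WT (1.47, adjusted p = 8.63e-07).

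On the lower side, Gclm was below WT by 0.99 in KO, 0.49 in 3XKO and 0.79 in 4XKO (differences of -0.99, -0.49 and -0.79, adjusted p = 2.15e-10, 6.04e-05 and 2.1e-08). Gstm5 differed by -1.55 in KO and -1.67 in 4XKO (adjusted p = 6.69e-09 and 1.64e-09). Gstt2 read 153.0, 116.1 and 81.1 in KO EpiLC, a difference of -1.58, with -0.84 in 3XKO and -1.43 in 4XKO. Every one of these KO arrays lay below all 3 WT EpiLC arrays. The secreted peroxidase Gpx3 read 273.2, 263.3 and 265.9 in KO (-1.23, adjusted p = 1.55e-09). Mgst1 was lower by 1.17, 1.81 and 1.54 (differences of -1.17, -1.81 and -1.54) in KO, 3XKO and 4XKO, and Gstk1 gave -0.71, -1.11 and -0.70. Gstp1 was lower in the lines without Tcf7l1, at -0.67 and -0.35 for its bright probes in KO and -0.67 and -0.38 in 4XKO. All probes of Gpx8, a peroxidase of the endoplasmic reticulum membrane, that were called were lower.

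In EpiLC+CH the excess of Gsta3 over WT, which itself read 140.5 to 144.4 there, was 7.57-fold in KO, 6.04-fold in 3XKO and 7.67-fold in 4XKO. Gstp3 kept its excess in KO (2.57) and 4XKO (2.43), and Gstm1 likewise (1.67 and 1.35). Calls numbered 35 in KO (20 higher, 15 lower; 21.1% of all probes, 10.8% and 10.2% by direction), 31 in 3XKO (11 and 20; 17.6%, 8.96% and 8.65%) and 32 in 4XKO (17 and 15; 20.6%, 10.5% and 10.1%).

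**Figure D3:**
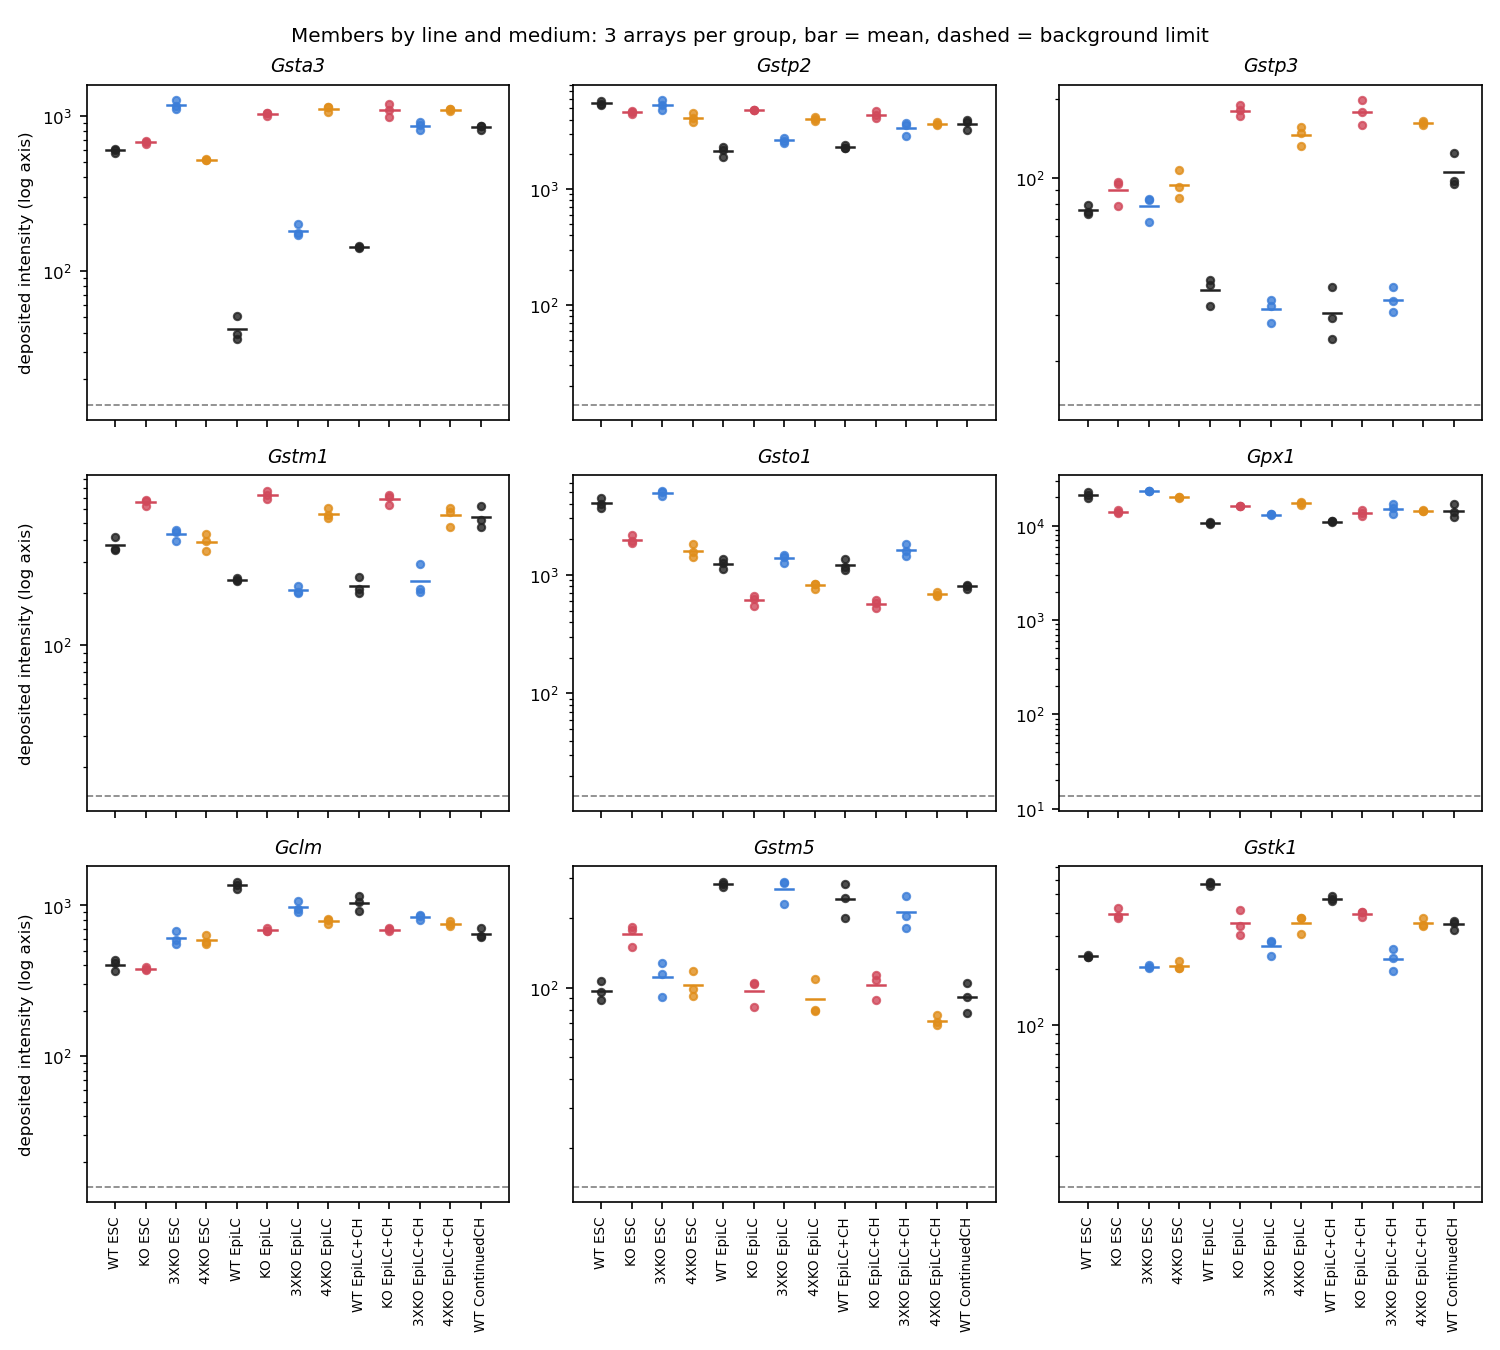
Intensity (log axis) on each array of the 39, by line and medium, for 9 members; points are arrays, bars are the means of 3 and the dashed line is the background limit of 13.6. WT EpiLC holds the lowest Gsta3 arrays (36.6 to 51.2) and the highest Gclm arrays (1280.5 to 1439.7).

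In ESC medium fewer members were called against WT than in EpiLC in each of the 3 lines. KO had more mu-class transferase signal and less Gsto1; 3XKO had more Mgst2, Gsta3 and Gstp1 and less Gpx4; 4XKO had less Gpx2 and Gsto1. Calls were 21 in KO (17 higher, 4 lower; 9.39% of all probes, 4.6% and 4.78% by direction). They were 21 in 3XKO (10 and 11; 14.2%, 6.91% and 7.27%) and 10 in 4XKO (4 and 6; 5.65%, 3.07% and 2.59%).

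In KO ESC, Gstm1 read 675.3, 630.2 and 670.4 (0.82 ± 0.12 above WT, adjusted p = 2.72e-05), and Gstm2 (0.92, 0.60 and 0.54), Gstm4 (0.56), Gstm5 (0.81) and Gstm6 (1.28 and 0.98) were higher too. These probes may share signal, which was not tested. Gstk1 read 421.2, 385.2 and 373.4, all above the WT arrays (0.75, adjusted p = 3.19e-06). It lies on chromosome 6, on which the median of 358 brighter probes was itself 0.22 above WT in KO. Gsto1 was lower by 1.03 in KO (-1.03 ± 0.11, adjusted p = 6.6e-08) and by 1.34 in 4XKO (-1.34 ± 0.11, 2.53-fold, adjusted p = 6.27e-10).

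In 3XKO ESC, Gpx4 was 2.22-fold lower than in WT (-1.15 ± 0.11, adjusted p = 4.45e-09), so its rise in EpiLC started from a low naive level. Gsta3 was higher by 0.98 (adjusted p = 2.18e-09). Gsta3 lies on chromosome 1, on which the median of 319 brighter probes in 3XKO was above WT by 0.48 in ESC, 0.51 in EpiLC and 0.53 in EpiLC+CH; the part of this shift in the Gsta3 value was not tested. The chromosome 6 median in 3XKO was -0.24, -0.25 and -0.29, beside which the lower Gstk1 and Mgst1 values of 3XKO EpiLC stand. Mgst2 read 38.8, 26.4 and 30.3 in 3XKO ESC against 16.4, 10.8 and 8.8 in WT (1.44, adjusted p = 2.41e-06), and Gstp1 was higher by 0.87 and 0.81. In 4XKO ESC, Gpx2 was 3.15-fold lower than in WT (-1.66 ± 0.13, adjusted p = 9.8e-10). Gclm was higher in 3XKO (0.58, adjusted p = 9.47e-06) and 4XKO (0.53, adjusted p = 9.19e-05), the opposite of its position in EpiLC.

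EpiLC+CH was set against untreated EpiLC in each line to follow these genes over 24 h of CHIR99021 outside the naive medium. This difference is called the response below, although days of culture cannot be told apart from CHIR99021 in it. In WT, Gsta3 and Gpx4 rose and Gstt3, Gpx7, Txnip, Gpx3 and Gclm fell. Gsta3 also rose in 3XKO, but in neither line without Tcf7l1 was a change of Gsta3 or Gpx4 called. The summed naive markers moved alongside, reaching 8280.1 to 9005.1 in WT EpiLC+CH and 11057.2 to 11767.2 in 3XKO EpiLC+CH (5696.1 to 6467.3 untreated), with 14286.9 to 15153.7 in KO and 14684.6 to 15078.8 in 4XKO, both overlapping their untreated ranges. Their part in these results was not tested. Calls were few, 7 in WT (2 higher, 5 lower; 6.51% of all probes, 3.26% and 3.25% by direction) and 9 in 3XKO (2 and 7; 5.85%, 2.97% and 2.88%). KO had 1 lower (0.934%, 0.366% higher and 0.568% lower) and 4XKO 1 higher (2.16%, 0.86% higher and 1.3% lower). In KO, 9 of the 82 had an unadjusted p under 0.05 (9.6% of all probes did), and in 4XKO 15 (15.3% of all probes).

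Gsta3 reached 144.4, 140.5 and 142.9 in WT EpiLC+CH, 3.40-fold over untreated WT EpiLC (1.77 ± 0.09, adjusted p = 7.7e-15). In 3XKO it reached 903.5, 873.4 and 811.2, a 4.76-fold rise (2.25 ± 0.09, adjusted p = 6.33e-17). In KO (973.8, 1082.7 and 1193.7) and 4XKO (1104.9, 1107.3 and 1069.0) no change was called, and the response was below that of WT by 1.68 (-1.68 ± 0.12, adjusted p = 1.5e-10) and 1.79 (-1.79 ± 0.12, adjusted p = 2.87e-11). The WT level after 24 h was still far below the level of those lines.

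Gpx4 rose in WT to 2010.3, 2206.8 and 2240.5 (0.63 ± 0.11, adjusted p = 0.000124), and its response was smaller in KO by -0.87 ± 0.15 (adjusted p = 0.0005) and in 4XKO by -0.91 ± 0.15 (adjusted p = 0.000199). Gstt3 fell in WT from 186.3, 166.6 and 211.5 to 102.8, 85.1 and 98.7 (-0.98 ± 0.12, adjusted p = 1.85e-06). The Gstt3 response differed from WT in KO by 0.79 ± 0.17 (adjusted p = 0.00833) and in 4XKO by 0.94 ± 0.17 (adjusted p = 0.000909). In all, the response differed from that in WT for 3 probes in KO (2.04% of all probes), 1 in 3XKO (0.693%, a Gpx8 probe at -0.74 ± 0.15) and 4 in 4XKO (4.34%).

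Txnip fell in WT to 1210.0, 1151.1 and 1045.9 (-0.52 ± 0.09, adjusted p = 0.000201), in KO from 2245.0, 2421.2 and 2059.2 to 1595.9, 1577.1 and 1458.5 (-0.54, adjusted p = 0.00143) and in 3XKO by 0.40. It was the only member called in KO. Gclm fell in WT to 1055.6, 911.9 and 1151.1 (-0.40 ± 0.08, adjusted p = 0.00246). Gpx7 fell in WT to 350.2, 353.1 and 297.0 (-0.57, adjusted p = 0.00404) and in 3XKO from 311.7, 347.7 and 325.9 to 150.8, 182.2 and 172.3 (-0.97, adjusted p = 3.88e-06). The single call in 4XKO was Txn2, which rose from 184.8, 187.1 and 223.4 to 252.6, 266.9 and 257.8 (0.39, adjusted p = 0.0327).

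WT cells kept in CHIR99021 with Fgf2 throughout differed more from untreated WT EpiLC than those given it for 24 h. Time in Fgf2 is given for neither ContinuedCH nor untreated EpiLC, so it cannot be told apart from the exposure. Gsta3 was 20.0-fold higher and Gstp3 2.80-fold higher, with Gstm1, Gstm2, Gstp2 and Gpx4 also higher. Gpx8, Gstm5, Gstt2, Gpx3, Gpx2, Gclm, Gstk1, Gstp1 and Gsto1 were lower. In all, 36 of the 82 probes were called (16 higher, 20 lower), beside 19.2% of all probes (9.9% and 9.34%), and the comparison uses the same WT EpiLC arrays as those of the mutant lines above.

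Gsta3 read 857.5, 808.9 and 852.3 (4.32 ± 0.09, adjusted p = 7.67e-24), Gstp3 97.8, 94.8 and 124.4 (1.49 ± 0.14, adjusted p = 1.59e-09) and Gstm1 474.3, 521.9 and 623.5 (1.18, adjusted p = 1.31e-08). All of these arrays lay above every untreated WT EpiLC array. Gstp2 read 3924.2, 3807.6 and 3241.0 (0.78, adjusted p = 1.23e-07) and Gpx4 2214.3, 2209.2 and 2256.7 (0.68, adjusted p = 1.03e-05). Lower were Gclm at 627.3, 711.8 and 614.7 (-1.07, adjusted p = 5.15e-11), Gstm5 at 77.2, 104.5 and 91.2 (-1.64, adjusted p = 2.51e-09) and Gstt2 at 114.7, 89.3 and 123.9 (-1.64, adjusted p = 2.17e-08). Gpx3 at 264.4, 247.4 and 219.4 (-1.37, adjusted p = 2.06e-10) and Gpx2 at 49.3, 55.3 and 35.5 (-1.34, adjusted p = 5.5e-09) were also below all untreated arrays. The Gpx8 probes fell by up to 3.20-fold, and Gstt1 was at least 3.04-fold lower (adjusted p = 9.02e-06).

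Set directly against the 24 h exposure, continuous CHIR99021 gave 29 called probes (14 higher, 15 lower; 16.8% of all probes, 8.81% and 7.95% by direction). Gsta3 was 5.89-fold higher (2.56 ± 0.09, adjusted p = 2.96e-18), Gstp3 was higher by 1.80 (adjusted p = 6.17e-11) and Gstm1 by 1.31. Gpx8 (-1.46 to -1.58), Gstm5 (-1.41), Gstt2 (-1.28), Gpx3 (-0.95), Gpx2 (-0.93) and Gclm (-0.67) were lower.

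**Figure D4:**
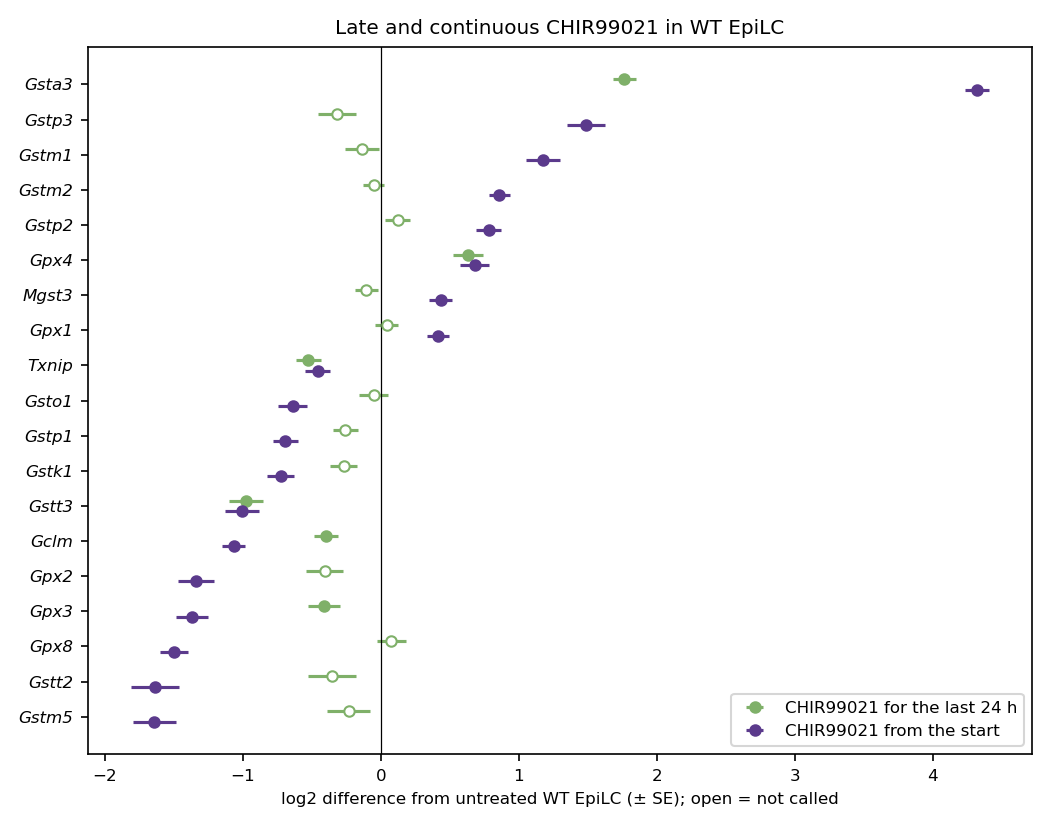
Log2 difference from untreated WT EpiLC (x axis, bars are SE, n = 3 arrays a group) for 19 members after CHIR99021 for the last 24 h or from the start; open points were not called. Gsta3 stands at 1.77 and 4.32, and Gstt3 and Txnip lie at almost the same place for both exposures.

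The separately normalized WT arrays asked how the naive medium's components bear on these genes. The LIF+PD+24hrCH arrays set against the LIF+PD arrays gave no call among the 82 probes (0.342% of all probes, 88 in number, were called by limma). An unadjusted p under 0.05 was found for 11 members (13.4%, beside 8.43% of all probes). Limma with a trended and robust prior called 2. The closest by adjusted p was Gstk1, at 160.2, 149.3 and 154.7 in LIF+PD and 108.4, 106.8 and 99.1 in LIF+PD+24hrCH (-0.56 ± 0.05, adjusted p = 0.0526). Gsta3 read 98.0, 115.9 and 125.9 in LIF+PD and 238.3, 220.0 and 235.1 in LIF+PD+24hrCH (1.04 ± 0.11, adjusted p = 0.0675). Neither gene's groups overlapped, yet neither passed the threshold.

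The epithelial peroxidase Gpx2 read 978.2, 718.8 and 703.8 in LIF+PD and 1132.0, 1511.8 and 1432.7 with CHIR99021 (0.77 ± 0.19, adjusted p = 0.310). The only LIF+CHIR array read 3558.5, 4.45-fold over the LIF+PD mean, and the only PD+CHIR array 314.7, 2.54-fold under it. Neither medium has a replicate, so these are values without a test. Gpx3, at 679.9, 547.0 and 474.9 in LIF+PD, read 110.8 in LIF+CHIR (5.12-fold lower) and 175.7 in PD+CHIR (3.23-fold lower). Gsta3 read 418.5 in LIF+CHIR and 387.1 in PD+CHIR, 3.69-fold and 3.42-fold over LIF+PD. The LIF+CHIR and PD+CHIR arrays were thus on the same side of LIF+PD for Gsta3 and Gpx3 and on opposite sides for Gpx2. Gstm1 read 1003.8, 697.4 and 669.4 in LIF+PD, 670.4 in LIF+CHIR and 1826.0 in PD+CHIR, the last 2.31-fold higher. Gsto1 read 887.0, 662.9 and 677.5 in LIF+PD and 344.2 in PD+CHIR, 2.16-fold lower. Over 2-fold from LIF+PD were 4 of the 49 members compared in LIF+CHIR (8.51% of all probes passing the same background limit) and 8 of 51 in PD+CHIR (8.11%).

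**Figure D5:**
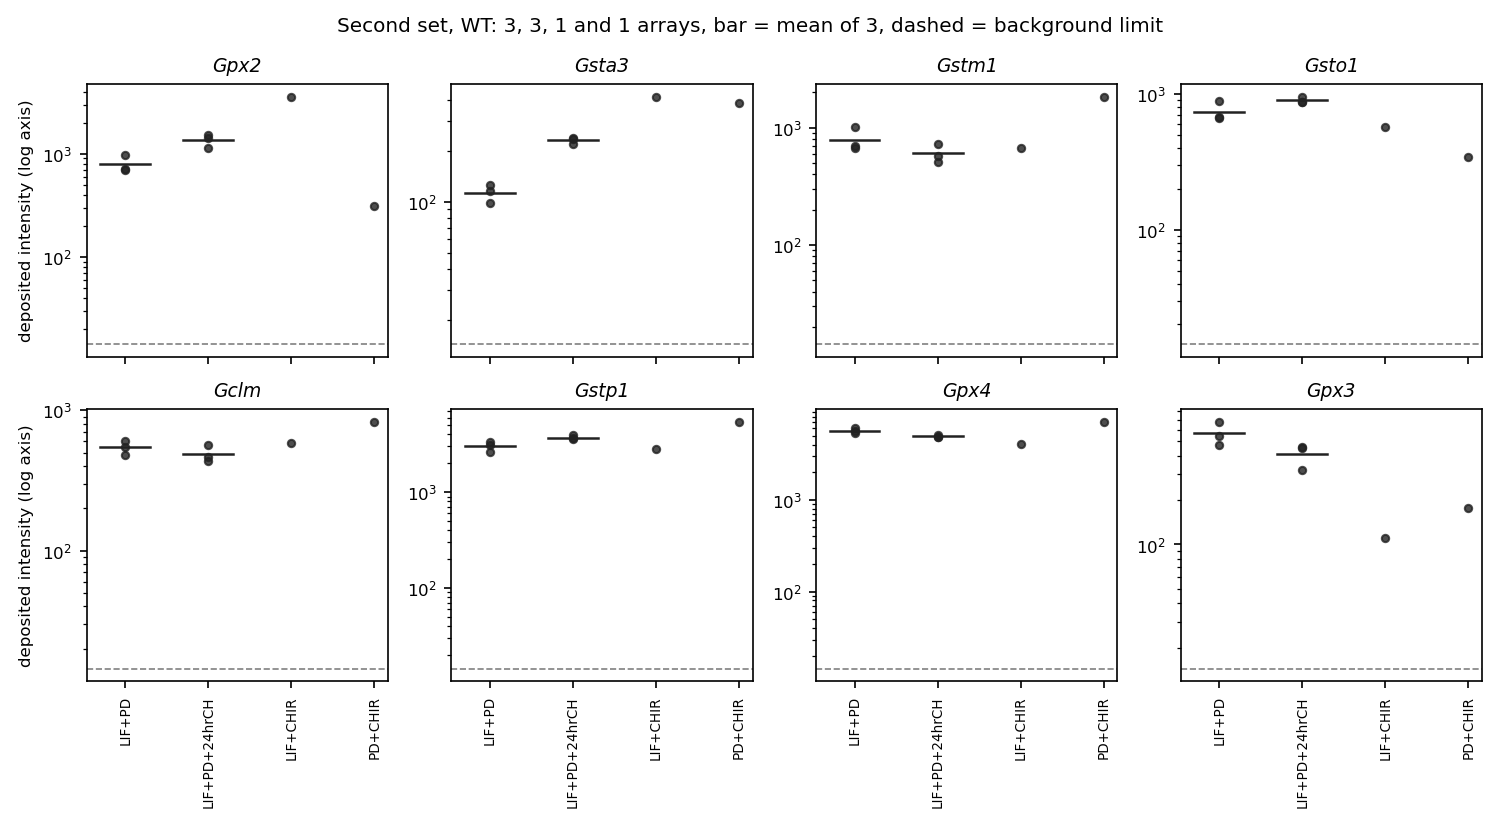
Intensity (log axis) on the 8 arrays of the separately normalized WT set for 8 members; points are arrays, bars are means of 3 and the dashed line is the background limit of 14.3. Gpx2 is highest on the LIF+CHIR array (3558.5) and lowest on the PD+CHIR array (314.7).

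Other genes of the same chemistry, not taken by the rule, were listed as glutathione use and supply (16 measured), NADPH supply (7), other antioxidant enzymes (19), regulators (8) and other xenobiotic enzymes (23). Each of these genes was counted by its brightest probe only, whereas the shares of all probes given beside them include dim probes. The part of this choice in the counts of this paragraph was not tested. In the WT change to EpiLC, 13 of these 73 genes rose and 30 fell, beside 15.7% and 14.3% of all probes. Among xenobiotic enzymes 2 of 23 rose and 10 fell, and among glutathione genes 5 of 16 rose and 4 fell. Chac1, which degrades glutathione, rose 12.8-fold from 309 ± 34.7 to 3944 ± 225 (SD, n = 3), and the cystine carrier Slc7a11 rose at least 1.49-fold. The epoxide hydrolase Ephx2 fell 24.0-fold, from 550 ± 111 to 22.7 ± 2.34 (-4.59 ± 0.16, adjusted p = 1.14e-19). In EpiLC, KO had 23 of the 73 higher and 8 lower than WT (11.1% and 10.6% of all probes), 4XKO 22 and 12 (10.3% and 9.69%), 3XKO 9 and 12 (9.66% and 9.11%), and continuous CHIR99021 gave 18 and 11 (9.9% and 9.34%). Ephx2 was higher in all of these groups, 8.98-fold in KO, 6.01-fold in 3XKO, 10.9-fold in 4XKO and 19.9-fold under continuous CHIR99021. Chac1 was 9.57-fold lower in KO and 5.23-fold lower in 4XKO, and glutaredoxin Glrx 4.55-fold higher in KO. After 24 h of CHIR99021 in WT, Ephx2 rose 10.8-fold and Glrx 2.92-fold, among 4 genes that rose and 6 that fell (3.26% and 3.25% of all probes). In ESC the counts against WT were 5 higher and 4 lower in KO (4.6% and 4.78% of all probes), 8 and 10 in 3XKO (6.91% and 7.27%) and 3 and 3 in 4XKO (3.07% and 2.59%).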

How the data were processed

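Expression was measured on 47 Illumina bead arrays. The deposited values are intensities, background-corrected and normalized by the authors, with many below 0; lumi and limma are named in the submitters' processing notes, without versions or roles. The 39 arrays and the 8 arrays were normalized separately and were never compared with each other. Values under 1 (31.2 to 32.1% of an array) were set to 1, log2 was taken, and arrays were quantile normalized within each set. limma 3.58.1 (R 4.3.3) was fitted with 1 mean per group, and p-values were adjusted by Benjamini-Hochberg over 25697 probes with a threshold of 0.05. "At least" folds use the background limit as the level of a group under it. Probe genes came from the platform annotation, which gave 1 symbol for 23978 probes and none for 1719. Different probes of a member gene were kept apart. For Tcf7l1, the marker genes and the other list, only the probe with the highest mean intensity over the 39 arrays was used. Members and lists were chosen with earlier results of these data known. Genes named in the text were up to 6 called members in each direction per comparison with the largest difference and 1 group wholly above the limit, a fixed set of central genes (Gclc, Gclm, Txn1, Txnip, Txnrd1, Gpx1, Gpx4, Prdx1, Gsta4, Gstm1, Gstp1, Gsto1 and Mgst1), and up to 3 of the other list in each direction; further members are named with their values after these were seen. Same-numbered replicates did not deviate together (correlations of -0.26 to 0.35, and 0 of the 20 comparisons checked, those between 2 groups, with every pair over 0.1), so replicates were not paired. The fit was tested on simulated data. Alternatives covered the normalization, the floor, dim probes, the prior, a replicate block, the arrays fitted and leaving out each array.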

Additional observations from a re-analysis of the deposited data

Results flagged for a closer look

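The effects below differed between lines when the difference itself was tested (interaction in limma, adjusted p under 0.05). They are the genes with the largest differences in each direction, up to 3, among members above background in all 4 groups, a limit chosen after the values were seen. For the change from ESC to EpiLC, KO exceeded WT for Gsta3 (4.43), Gstp3 (2.03) and Gstp2 (1.45), and lay below it for Gstm5 (-2.36), Gpx3 (-1.6) and Gstt2 (-1.56). In 3XKO the change was above that of WT for Gpx4 (1.98), Gsta3 (1.13) and 1 Txnl4a probe (0.42), and below it for Gclm (-1.08), Gpx3 (-1.02) and Gstp1 (-0.98). The Txnl4a probes disagreed: others were called below WT in the same test, at -0.42 (adjusted p = 0.00197) and -0.34 (adjusted p = 0.0266). In 4XKO it was above for Gsta3 (4.92), Gstp3 (1.64) and Gpx2 (1.52), and below for Gstm5 (-1.76), Gstt2 (-1.36) and Gclm (-1.32). For the response to 24 h of CHIR99021, KO differed from WT for Gstt3 (0.79), Gsta3 (-1.68) and Gpx4 (-0.87). In 3XKO it differed for 1 Gpx8 probe (-0.74), and in 4XKO for Gstt3 (0.94), Gstm4 (0.71), Gsta3 (-1.79) and Gpx4 (-0.91). All values are log2 differences of differences, and all tests of one kind share the WT arrays.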

How the results depend on the processing

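Over 8103 repeats for 560 results on named genes, 7843 kept direction and side of the threshold, 214 lost the call (67 of them with only the compared arrays fitted), 46 gained one and none reversed. Counts that moved by over 1.5 times were these. Fitting only the compared arrays gave 20 in place of 31 for the 4XKO change to EpiLC, 4 in place of 7 for 24 h of CHIR99021 in WT, 0 in place of 1 in KO, 2 in place of 9 in 3XKO and 0 in place of 1 in 4XKO. It also gave 11 in place of 21 for 3XKO against WT in ESC, 2 in place of 10 for 4XKO in ESC, 19 in place of 31 for 3XKO in EpiLC+CH, and 0 in place of 1 for the 3XKO response difference; fewer arrays leave fewer degrees of freedom. A floor at the background limit gave 3 for CHIR99021 in 4XKO and response differences of 5 in KO and 4 in 3XKO. Leaving out the dimmest probes, or a trended and robust prior, gave 2 for CHIR99021 in 4XKO and 3 for the 3XKO response difference, and that prior gave 2 for LIF+PD. The cause of these moves was not tested. With the replicate number as a block, the 3XKO response difference had 2 probes in place of 1, and no other count moved by over 1.5 times (46 for the WT change to EpiLC; over all probes the LIF+PD comparison then had 0 calls).

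Leaving out each array in turn gave, for the change to EpiLC, 42 to 46 calls in WT, 23 to 27 in KO, 42 to 45 in 3XKO and 26 to 31 in 4XKO. For 24 h of CHIR99021 it gave 6 to 8 in WT, 1 to 1 in KO, 6 to 8 in 3XKO and 0 to 1 in 4XKO, with 0 without EpiLC array 1 or 2 or EpiLC+CH array 2 of 4XKO. Against WT in ESC it gave 17 to 22, 17 to 20 and 8 to 12 for KO, 3XKO and 4XKO, in EpiLC 38 to 41, 28 to 34 and 32 to 35, and in EpiLC+CH 28 to 33, 26 to 29 and 28 to 33. Differences in the change to EpiLC ranged over 33 to 36, 15 to 19 and 29 to 34, and response differences over 3 to 4, 1 to 2 and 3 to 5. The 2 in 3XKO came without 3XKO EpiLC array 1, 3XKO EpiLC+CH array 3 or WT EpiLC array 2. Continuous CHIR99021 gave 34 to 35 against EpiLC and 28 to 29 against EpiLC+CH. LIF+PD gave 0 to 2, with 2 without LIF+PD+24hrCH array 1. The count of members differing among the 13 groups stayed at 55 to 57 over the alternatives to the fit. KO EpiLC arrays 2 and 3 were the closest replicates (r = 0.985). Depth does not apply to arrays; signal over background limits the 17 probes under the limit on every array.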
